A study of Mus musculus with 14 samples.

Results

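The loci of 2 transcription factor genes, Nfatc1 on chromosome 18 and Nfatc2 on chromosome 2, are described here by their histone H3K27ac and H3K27me3 peaks in mouse regulatory T cells with and without Slc31a1. The members are all peaks of 10 deposited peak lists that overlap a window of 150 kb around Nfatc1 (chr18:80630001-80780000) or a window of 160 kb around Nfatc2 (chr2:168300001-168460000), in build mm39. They numbered 289 of the 309136 peaks in all lists, 187 at Nfatc1 and 102 at Nfatc2. Both windows were picked because runs of 10 kb bins inside them carried less H3K27ac length in the knockouts. The H3K27ac difference between genotypes is therefore given as a description, and nothing is supported with it. H3K27me3 was not used in the choice.

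The marks were mapped by CUT&Tag, in which an antibody directs a transposase to chromatin so that fragments carrying the mark are released and sequenced. Acetylation of H3K27 is found at enhancers and promoters in use, and its trimethylation is laid down by Polycomb complexes at silent genes. The sorted cells came from chimeras named Foxp3YFPcre;wt in the controls and Foxp3YFP-Slc31a1△;wt in the knockouts, so that both genotypes carry the YFP-Cre allele driven from Foxp3 and the knockouts in addition lack Slc31a1, the gene of the copper importer CTR1, in the cells that express this Cre. Each sample held 140000 cells. H3K27ac was profiled in 3 control and 3 knockout chimeras and H3K27me3 in 2 and 2. The 4 IgG samples were not analysed here. Replicates 1 to 3 of H3K27ac are chimeras 2 to 4, while replicates 1 and 2 of H3K27me3 are chimeras 1 and 2. Age, sex and any treatment are not given in the sources used here, and the labels do not say that every sample is an animal of its own, so the spread between samples may in part be technical. Whether only YFP-positive cells were sorted is not given there either. The label of regulatory T cells was not checked against marker genes, because no mm39 annotation was used here.

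Nfatc1 encodes NFATc1 (NFAT2) and Nfatc2 encodes NFATc2 (NFAT1). Both proteins rest in the cytoplasm in phosphorylated form, are dephosphorylated by calcineurin when the T cell receptor raises calcium, and then enter the nucleus to act at cytokine and activation genes. In regulatory T cells, NFAT is known to bind DNA together with Foxp3, and the Nfatc1 gene is known to be induced by NFAT itself through its own promoter. As background, both genes are transcribed toward lower coordinates, so that their starts lie on the higher-coordinate side. In the gene order of GRCm38.p6, an earlier build, Nfatc1 lies between Gm41790 and Atp9b, and Nfatc2 between Gm33413 and Gm52535, with Atp9a next on that side. No exon, intron or promoter was assigned to a peak.

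RefSeq lists 2 starts for Nfatc2 in GRCm38.p6, and the 250 bases before each are printed because NFAT proteins bind a core of GGAAA, the letters in capitals here on either strand (GGAAA or TTTCC). They are given from 5′ to 3′ on the minus strand, the strand of the gene.
Nfatc2 start 1: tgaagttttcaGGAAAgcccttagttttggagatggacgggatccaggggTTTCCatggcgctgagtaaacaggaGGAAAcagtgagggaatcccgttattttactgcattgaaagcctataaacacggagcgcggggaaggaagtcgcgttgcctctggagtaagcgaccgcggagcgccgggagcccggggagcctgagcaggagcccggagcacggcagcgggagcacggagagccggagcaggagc
Nfatc2 start 2: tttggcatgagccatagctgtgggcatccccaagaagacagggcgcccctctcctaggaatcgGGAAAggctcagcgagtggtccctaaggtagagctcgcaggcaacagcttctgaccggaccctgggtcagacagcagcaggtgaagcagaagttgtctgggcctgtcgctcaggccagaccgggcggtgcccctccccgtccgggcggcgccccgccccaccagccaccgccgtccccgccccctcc
The upper sequence holds 3 matches and the lower 1. A match is common, since 55.6% of 32851 RefSeq promoters of this length hold one, so that it describes the letters and not a binding site. The position of these sequences relative to the mm39 peaks was not determined.

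Some features of the lists touch every value below. The H3K27ac lists held 27986 to 32012 peaks in controls and 21326 to 28289 in knockouts. The fold and −log10 p of each H3K27ac peak fix the number of fragments at its summit and the level of its background. A whole number of summit fragments matched both values for 98.7% to 99.9% of peaks per list. The background was not required to be whole. Estimated depth was 8.49 to 12.4 fragments per kb in controls and 9.10 to 11.0 in knockouts. The library used as background was shallower in controls, at 13.1 to 16.1 fragments per kb, than in knockouts, at 20.6 to 20.7, so that the background library and the genotype cannot be told apart. The estimate was 13.1 in both control 2 and control 3, and 16.1 in control 1. Only 1 IgG sample is from a knockout. Whether lists shared a background library is not given, so that lists of 1 genotype may not be independent in this respect. The weakest summit called stood at 4.51 to 5.27 times the background of the list in controls and at 4.27 to 4.70 times in knockouts. These ranges overlap. Peak numbers skipped in a list mark peaks that were not at hand. None was skipped between the first and the last H3K27ac peak of either window. Ahead of the first Nfatc1 peak, however, every H3K27ac list but that of control 1 skips 1 or 2 numbers, in a stretch that includes the lower edge of the window, so that absence of a peak at this edge is uncertain. The H3K27me3 list of control 1 stood apart, with 7512 peaks against 36436 to 57728 in the other 3 and no −log10 p above 7.21.

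Both loci had more H3K27ac length in controls than in knockouts. At Nfatc1, peaks covered 75249, 74217 and 67734 bases in the control lists and 42158, 44955 and 34056 in the knockout lists (replicates 1, 2 and 3, here and below). Every knockout lay below every control, and the means were 72400 ± 4074 and 40390 ± 5661 bases (SD, n = 3 each), so that the knockouts held 55.8% of the control length. At Nfatc2, peaks covered 34536, 32530 and 31287 bases in controls and 19920, 19847 and 13470 in knockouts. The groups again did not overlap, with means of 32784 ± 1639 and 17746 ± 3703 bases (SD, n = 3 each), or 54.1% of the control length. Over the genome, every knockout lay below every control in 13.9% of 5810 windows of 150 kb and 14.1% of 5600 windows of 160 kb, shares from which nothing is read here because the windows were chosen on this contrast. Knockout 3 was lowest at both genes and also had the fewest peaks of the 6 lists. In a bulk sample, fewer cells with the mark and less mark per cell cannot be told apart.

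Peaks were fewer in the knockouts at both genes, while their width did not differ in the same way. Nfatc1 held 38, 39 and 35 H3K27ac peaks in controls and 34, 22 and 19 in knockouts. Nfatc2 held 23, 20 and 21 in controls and 13, 8 and 9 in knockouts. The mean peak width at Nfatc1 was 1939 ± 38.8 bp (control) and 1692 ± 411 bp (knockout), and at Nfatc2 1539 ± 75.7 and 1837 ± 558 bp (SD, n = 3 each). The ranges of the lists overlapped. The median width at Nfatc2 was higher in the knockouts, at 1509 to 2469 bp against 760 to 1126 bp. Over the whole lists the median width was also higher in the knockouts, at 901 to 1063 bp against 812 to 846 bp. The widest Nfatc1 peak measured 9648 to 14838 bp in controls and 6680 to 8210 bp in knockouts. The region chr18:80739023-80753865, one of the longest, was called as 2, 1 and 1 peaks in controls and as 5, 3 and 3 in knockouts.

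**Figure D1:**
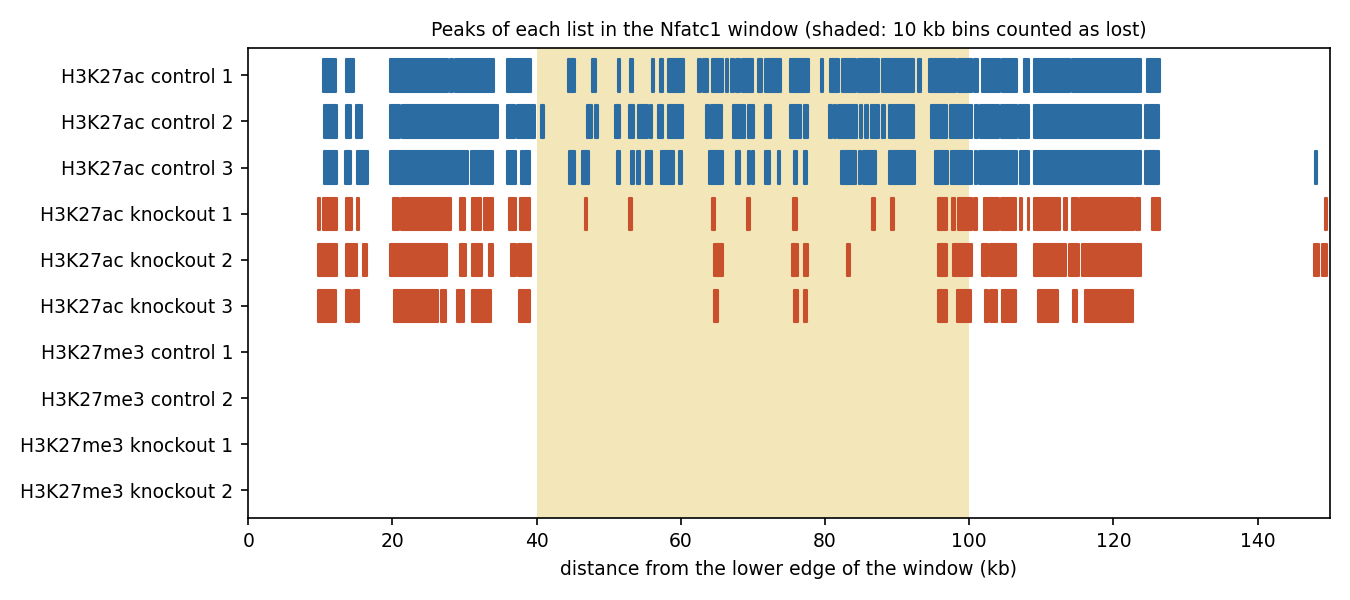
H3K27ac peaks at Nfatc1 in the control (blue) and knockout (orange) lists and, below them, the 4 H3K27me3 lists (grey where a peak exists); the x axis is the distance in kb from the lower edge of the window. Blue bars are spread over the shaded stretch and cover 23017 to 32653 bases of it in controls. Its 6 bins held 20.4% of the control length in the knockouts. Both sides of it carry bars in all 6 lists, and no H3K27me3 list has a peak.

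At Nfatc1 the middle of the window held few H3K27ac peaks in the knockouts, and the flanks held most of theirs. The flanks here are the parts of the window on either side of this middle, with no reference to the borders of the gene. A 10 kb bin is called lost when every knockout lay below every control and the knockout mean was under 50% of the control mean, and kept when the knockout mean was at least 75%. Both limits were chosen after the values were seen. Of 15 bins, 14 had a peak in some list: 6 were lost, 5 kept and 3 lay between. The 6 lost bins formed 1 unbroken run from 80670001 to 80730000, and held 32653, 28793 and 23017 bases in controls and 6249, 6524 and 4498 in knockouts. The knockout mean over this run was 20.4% of the control mean. That the groups do not overlap follows from the definition of a lost bin. The 5 kept bins together held 22294, 23513 and 24813 bases in controls and 20335, 24042 and 18634 in knockouts, or 89.2%, with overlapping groups. Among them are the bins that begin at 80630001 and 80770001, which held little or nothing in controls. Their lengths were 0, 0 and 0 against 383, 323 and 354 bases, and 0, 0 and 271 against 375, 1508 and 0. The overlap depends on these bins, which also raise the 89.2%.

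Within the lost run of Nfatc1, the depth of the loss varied. The bin from 80680001 to 80690000 held 3205, 5533 and 4213 bases in controls and 410, 0 and 0 in knockouts. The bin from 80710001 to 80720000 held 8354, 6804 and 5223 bases in controls against 718, 294 and 0. These 2 bins were nearly empty in the knockouts, at 3.2% and 5.0% of the control mean. The bin from 80720001 to 80730000, at the upper end of the run, was the lost bin nearest to the limit, with 8292, 7291 and 6792 bases in controls and 3303, 3567 and 2968 in knockouts, or 44.0%. The nearest bin outside the limit was the one from 80660001 to 80670000, at the lower end of the run, with 63.0%. The longest stretch without a peak in any knockout that controls did cover ran from 80683189 to 80694268, 11080 bp long, of which 7785 bases lay under a peak of some control.

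The flanks of the lost run held the highest summits of the Nfatc1 window. At the upper end of the run, chr18:80724358-80730410 also reached 70.2, 61.8 and 69.2 times the list background in controls. The bin from 80650001 to 80660000 held 9420, 9739 and 10000 bases in controls and 8131, 8143 and 7680 in knockouts, and the bin from 80740001 to 80750000 held 9751, 10000 and 10000 against 8495, 9246 and 6877. These 2 bins were almost filled with peaks in controls and remained at 82.1% and 82.7% in the knockouts, though every knockout was still below every control. The longest stretches under a peak in all 6 lists lay in the same 2 places, chr18:80746014-80752693 (6680 bp) and chr18:80651264-80656379 (5116 bp). The flanks were not untouched: the 3 bins between the limits lay there, at 63.0%, 69.4% and 64.6%, and chr18:80754441-80756498 in the upper flank covered 1810, 1858 and 1857 bases in controls and 1123, 0 and 0 in knockouts. At the lowest edge, the bin from 80630001 to 80640000 had no listed peak in any control and 383, 323 and 354 bases in the knockouts. The zeros of controls 2 and 3 are uncertain here because of the skipped peak numbers. The bin holds the lower border of a region present in all lists, chr18:80639618-80642313, which covered 1706, 1793 and 1821 bases in controls and 2317, 2614 and 2579 in knockouts. The other kept bin with little signal, from 80770001 to 80780000, held 0, 0 and 271 bases in controls and 375, 1508 and 0 in knockouts.

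**Figure D2:**
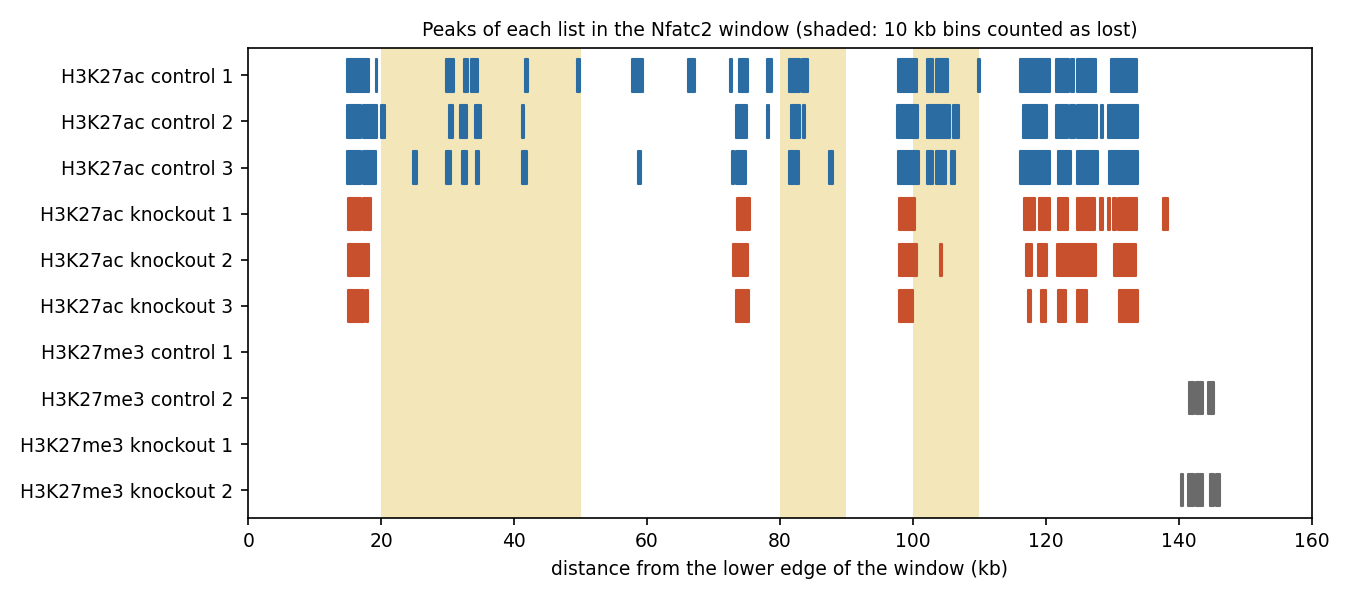
H3K27ac peaks at Nfatc2 in the control (blue) and knockout (orange) lists and the H3K27me3 lists (grey); the x axis is the distance in kb from the lower edge of the window. The knockout lists keep the outer peaks and 2 islands near 74 and 99 kb and have almost nothing in the shaded bins, and the H3K27me3 peaks of control 2 and knockout 2 lie beyond the last H3K27ac peak.

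At Nfatc2 the loss was broken into pieces around 2 peaks that stayed. Of 16 bins, 13 had a peak in some list: 5 were lost, 5 kept and 3 lay between. The lost bins began at 168320001, 168330001, 168340001, 168380001 and 168400001, and held 9697, 10198 and 8872 bases in controls and 380, 840 and 86 in knockouts. The knockout mean was 4.54% of the control mean, a low value by the definition, and 4 of the 5 bins had no knockout peak at all. The kept bins held 18097, 18906 and 18078 bases in controls and 16657, 16920 and 12278 in knockouts, or 83.3%, and every knockout was below every control. The lost bin nearest to the limit, from 168400001 to 168410000, stood at 10.3%, and the nearest bin above it, from 168410001 to 168420000, at 53.3%. The bins that begin at 168350001 and 168360001 had no knockout peak, but at least 1 control had none either.

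The longest H3K27ac gap in the knockouts ran through the lower part of the Nfatc2 window. No knockout list had a peak from 168318474 to 168372928, a stretch of 54455 bp of which some control covered 10677 bases. A further gap of 22358 bp ran from 168375521 to 168397878, with 3985 bases under a peak of some control. Between these gaps, the bin from 168370001 to 168380000 held 2478, 1937 and 1722 bases in controls and 1967, 2255 and 1892 in knockouts, so that it was retained at 99.6% with mixed order. The bin from 168390001 to 168400000 was also retained, with 2254, 2345 and 2284 bases against 2083, 2122 and 2061, or 91.0%. On the higher-coordinate side, the bins from 168420001 to 168440000 held 6033, 6533 and 6212 and then 3745, 3911 and 3828 bases in controls, and 5432, 6074 and 2827 and then 4009, 3353 and 2756 in knockouts. Both groups overlapped in these bins, and knockout 3 was the lowest in each.

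**Figure D3:**
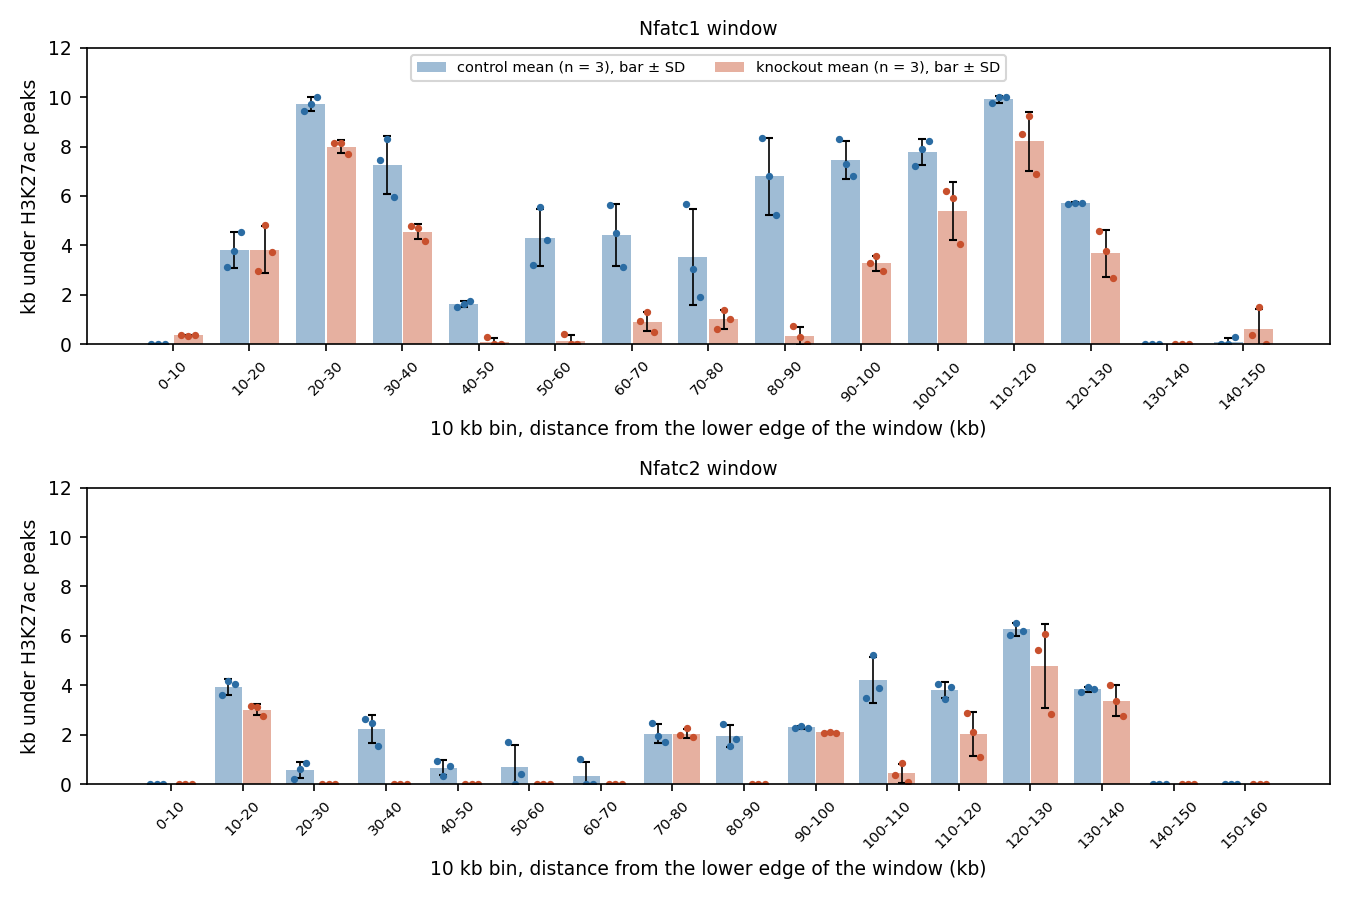
Length under H3K27ac peaks in each 10 kb bin of both windows in kb; bars are means of 3 control (blue) and 3 knockout (orange) lists, whiskers the SD and points the lists. At Nfatc1 the knockout means of the lost bins are 3.2% to 44.0% of the control means, and those of the other bins covered in controls 63.0% or more. At Nfatc2 the lost bins stand at 0% to 10.3%. The kept Nfatc2 bins, among them those at 70 to 80 kb and 90 to 100 kb, stand at 76.3% or more, and the bin from 168410001 to 168420000 at 53.3%.

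The windows were chosen for bins of lower length, so that the shares over the genome are given for scale only. Every knockout was below every control in 11 of the 14 Nfatc1 bins and 8 of the 11 Nfatc2 bins covered in at least 3 lists, against 12.4% of the 19295 such bins of the genome. With limma (Benjamini-Hochberg adjustment over all bins, adjusted p under 0.05), 4 Nfatc1 bins and 3 Nfatc2 bins were called lower in knockouts and none in either window higher. The genome-wide shares were 2.25% called lower and 0.58% called higher. These calls repeat the contrast on which the windows were chosen, and nothing is read from them. The called bins began at 80680001, 80690001, 80710001 and 80720001 in Nfatc1, and at 168330001, 168380001 and 168400001 in Nfatc2. The calls depended on the settings and on single lists. With the replicate number as a block, the calls of all 3 Nfatc2 bins and of the bin at 80680001 were lost, and a pseudocount of 10 bases left 1 and 0 calls. Without any one of controls 1, 2 and 3 or without knockout 2, no bin of either window was called. In these fits 10 to 11 Nfatc1 and 6 to 8 Nfatc2 bins were lower at an unadjusted limma p under 0.05. So were 1567 to 1723 of the 19295 bins of the genome, and nothing is read from these counts either. The counts of called bins were 1 and 2 without knockout 3, and 7 and 4 without knockout 1.

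Base by base, about the same part of the shared control signal was absent at both genes. At Nfatc1, 56386 bases lay under a peak in all 3 controls, and of these 51.0% lay under a peak in all 3 knockouts and 22.5% in none. At Nfatc2 there were 23076 such bases, with 52.4% in all knockouts and 21.5% in none. The shares over the genome were 81.4% and 3.64%. The longest stretch at Nfatc1 that was in all controls and no knockout was chr18:80719530-80722364, 2835 bp long, and at Nfatc2 it was chr2:168402115-168402946, 832 bp long. In the opposite direction, bases in all knockouts and no control came to 350 at Nfatc1 and 54 at Nfatc2.

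Joined across the 6 lists, the H3K27ac peaks formed 33 regions at Nfatc1 and 24 at Nfatc2. The summit height of a region in a list is that of its peak with the highest −log10 p. This peak is not always the tallest, and lists may differ in the summit taken. Regions with a peak in every control and no knockout numbered 4 at Nfatc1 and 5 at Nfatc2, against 2.66% of 37563 regions in the genome. None had a peak in every knockout and no control, against 0.809% in the genome. A peak in all 6 lists was found in 9 and 6 regions, or 27.3% and 25.0%, against 34.9% in the genome. The number of control-only regions at Nfatc1, 4 with all lists, depends on single lists: it was 7 without control 3 and 11 without knockout 1.

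The 4 control-only regions of Nfatc1 all lay in the lost run. They were chr18:80680910-80681602, chr18:80683954-80686290, chr18:80686795-80690429 and chr18:80701615-80703921. The longest of them, chr18:80686795-80690429, covered 2642, 2882 and 2326 bases in the controls. The highest was chr18:80701615-80703921, with summits at 25.4, 23.5 and 23.2 times the list background and 2307, 876 and 1078 bases covered. The summits of the other 3 lay between 7.58 and 11.9 times the background. A longer region next to them, chr18:80717863-80722469, missed the rule by 1 small peak: it covered 4487, 3917 and 3617 bases in controls and 346, 0 and 0 in knockouts.

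Of the 5 control-only regions of Nfatc2, 4 lay in the long lower gap: chr2:168329708-168330893, chr2:168331902-168333072, chr2:168333443-168335033 and chr2:168341154-168342108. The fifth, chr2:168381379-168382947, lay between the 2 retained islands and covered 1569, 1296 and 1233 bases in the controls. Its summits stood at 13.5, 13.9 and 15.6 times the list background, and those of the other 4 at 6.23 to 19.0 times. As at Nfatc1, a long region of the lost part held 1 short knockout peak: chr2:168402073-168405617 covered 2726, 3545 and 2322 bases in controls and 0, 279 and 0 in knockouts.

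The control-only regions were lower than the regions that stayed. Over both genes, the control summits of the 9 control-only regions had a median of 9.58 times the list background, and those of the 15 regions found in all 6 lists a median of 42.7 times. Within their own lists, the −log10 p of the former had a median percentile of 34.6 and that of the latter of 85.0. The height needed for a call rises with the local background, which at chr18:80701615-80703921 was 8.03, 4.44 and 7.82 times the list background in the controls. How much of their absence from the knockout lists follows from their low height was not tested.

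**Figure D4:**
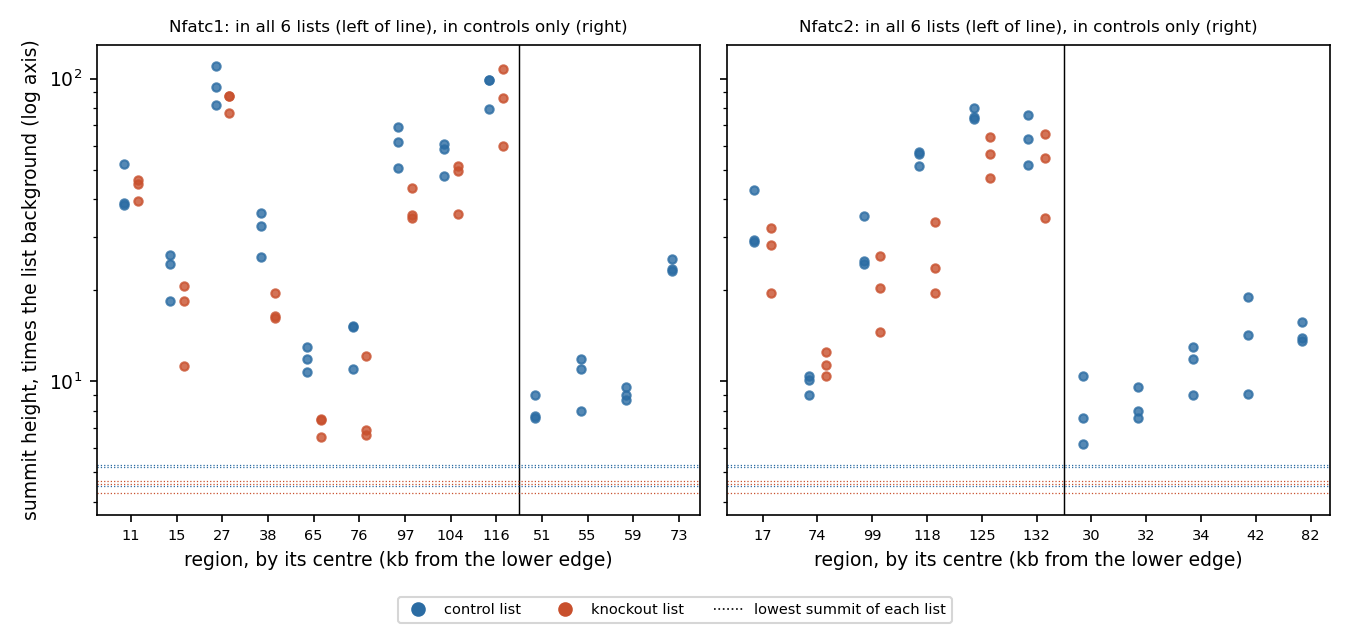
Summit height of each list (times the background of the list, log axis) in the regions with a peak in all 6 lists (left of the line) and in every control but no knockout (right); blue is control, orange knockout, dotted lines the weakest summit each list called. The control-only regions sit at 6.23 to 25.4, among the lower of the retained regions; where the local background is high, the limit for a call lies above the dotted lines.

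Summits in the retained regions were in part lower as well. Every knockout summit was below every control summit in 3 of 9 such regions at Nfatc1 and 2 of 6 at Nfatc2, against 11.4% of 12764 regions in the genome. The median knockout height was 73.1% and 76.3% of the control height, against 96.0% in the genome. The median local background under these summits was also lower in the knockouts, at 3.20 against 4.59 times the list background at Nfatc1 and 5.04 against 6.03 at Nfatc2. The regions were mixed. The mean local background was higher in the knockouts in chr18:80649599-80664662, chr18:80693948-80695908, chr2:168372459-168375520, chr2:168397656-168400933 and chr2:168429317-168433911, and lower in the other retained regions. The values were again chosen through the same contrast and are a description.

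The 3 strongest retained regions of Nfatc1 are given first. The summit of chr18:80649599-80664662 stood at 94.1, 81.9 and 109.9 times the list background in controls and at 87.4, 87.3 and 77.0 in knockouts, and its position was within 55 bp in all 6 lists. That of chr18:80739023-80753865 stood at 98.6, 79.0 and 98.6 in controls and 107.7, 86.0 and 59.9 in knockouts. That of chr18:80731421-80736684 stood at 47.6, 58.4 and 60.7 against 51.3, 49.6 and 35.8. The groups overlapped in chr18:80649599-80664662 and chr18:80739023-80753865. In chr18:80731421-80736684 the overlap came from control 1, whose summit lay at 80733387, while those of the other lists lay between 80734985 and 80735389. Its second peak there, chr18:80734536-80736630, stood at 55.6, above the knockout values given. A separation was seen in chr18:80665843-80669798 and chr18:80724358-80730410, the regions at either end of the lost run: 25.7, 35.9 and 32.7 against 19.6, 16.4 and 16.2, and 50.7, 61.8 and 69.2 against 43.5, 35.5 and 34.5. In the latter region, the 50.7 of control 1 is not from its tallest summit, which stood at 70.2. The other region separated by the values taken here, chr18:80693948-80695908, lies inside the run. It had 10.8, 12.9 and 11.8 times the background in controls and 7.44, 6.57 and 7.49 in knockouts.

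At Nfatc2 the summit of chr2:168421460-168427848 was at the same base in all 6 lists and stood at 73.3, 80.0 and 74.4 times the list background in controls and 64.2, 56.1 and 47.0 in knockouts. The neighbouring region chr2:168416042-168420593 stood at 56.3, 51.3 and 57.3 against 33.7, 23.6 and 19.6. In both regions, every knockout was below every control. In the neighbouring region the values of knockouts 2 and 3 are from a summit at 168419494. Those of the other lists are from 168417193 to 168417329. The tallest summit of knockout 2 there stood at 30.2. In the other 2 of the 3 strongest regions the groups overlapped, with 42.7, 29.2 and 28.9 against 32.1, 28.2 and 19.6 in chr2:168314865-168319435, and 75.7, 51.7 and 63.0 against 65.4, 54.5 and 34.5 in chr2:168429317-168433911. The retained island chr2:168372459-168375520 was the exception to the lower heights, with 9.03, 10.1 and 10.4 in controls and 11.4, 12.5 and 10.4 in knockouts. Its control heights lay within the range of the control-only Nfatc2 regions, 6.23 to 19.0. The island chr2:168397656-168400933 stood at 24.3, 24.9 and 35.1 against 25.9, 20.4 and 14.6.

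Other windows of the same length are given for scale only, since the NFAT windows were chosen on this contrast. Nfatc1 was among the windows with the most length under H3K27ac peaks in the control lists. Its control mean was reached by 18 of 5810 windows, or 0.31%, and that of Nfatc2 by 227 of 5600, or 4.05%. The NFAT windows were placed on the genes and the others were tiled, and a choice by lost length favours windows with much length in controls. On the log2 scale of mean bases plus 100, the knockouts differed from the controls by -0.84 at Nfatc1 and -0.88 at Nfatc2. Among the 190 windows with a control mean of at least 50% of that of Nfatc1, the median was 0.06, and 1 window was as low. It lies on chromosome X from 169200001 to 169350000, with 45297, 52651 and 47205 bases in controls and 0 in each knockout. Among the 741 windows chosen in the same way for Nfatc2, the median was 0.03, and 22 were as low.

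**Figure D5:**
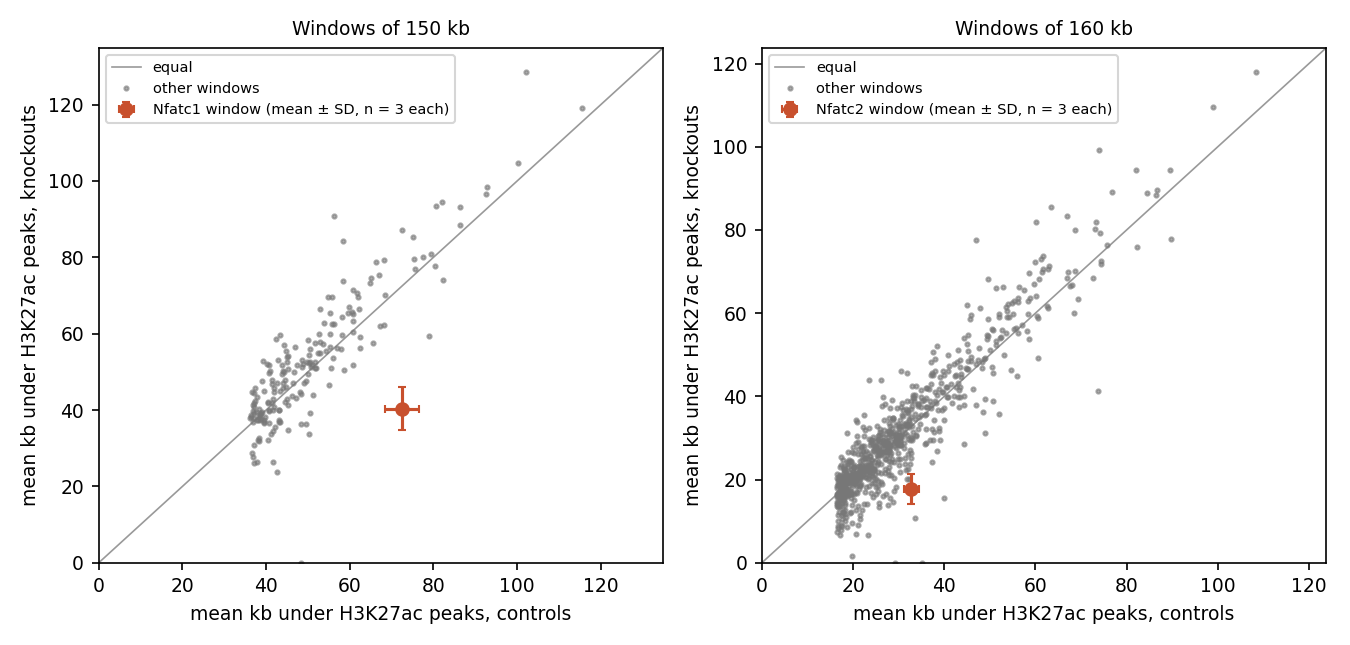
Mean length under H3K27ac peaks in controls (x axis, kb) and knockouts (y axis, kb) for windows of 150 kb and 160 kb whose control mean was at least 50% of that of Nfatc1 (190 windows) or Nfatc2 (741 windows); the orange point is the NFAT window with SD (n = 3 each) and the line marks equal lengths. Most windows follow the line, and both NFAT points lie below it.

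The windows whose pattern over the 6 lists was most like that of the NFAT genes are named with the Pearson r of log2(bases + 100), given with no p and over lists that fall into 2 groups. For Nfatc1, of 189 windows, these were chr17:73350001-73500000 (r = 0.988), chr14:26850001-27000000 (r = 0.960) and chr1:34800001-34950000 (r = 0.959). The first of them held 42811, 40047 and 42272 bases in controls and 27007, 28998 and 23024 in knockouts. For Nfatc2, of 740 windows, they were chr2:26240001-26400000 (r = 0.995), chr15:73440001-73600000 (r = 0.994) and chr9:61600001-61760000 (r = 0.993). The first of these held 27313, 27102 and 26928 bases in controls and 22897, 22536 and 18975 in knockouts, a smaller difference than at Nfatc2 with the same order of lists.

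H3K27me3, the mark not used to choose the windows, was called sparsely or not at all at the NFAT genes. No H3K27me3 list had a peak in the Nfatc1 window. For control 2 this zero is uncertain, because its list skips 2 peak numbers between 80414811 and 80984290, a stretch that includes the whole window. At Nfatc2 the covered length was 0 and 2694 bases in controls 1 and 2, and 0 and 3577 bases in knockouts 1 and 2. The means of 1347 ± 1905 and 1789 ± 2529 bases (SD, n = 2 each) gave a two-sided exact permutation p of 1, where 2 against 2 lists cannot give less than 0.333. The control mean includes control 1, whose peaks were called at a looser limit than those of the other lists. The direction of the difference turned when control 1, the sparse list, was left out (a difference of -906 bases) and when knockout 2 was left out (-1347 bases).

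All H3K27me3 peaks at Nfatc2 lay between 168440356 and 168446244, beyond the highest H3K27ac peak of the window and outside the bins that lost H3K27ac. Control 2 had 3 peaks there, with −log10 p of 17.4, 24.2 and 26.4, and knockout 2 had 5, with 11.5 to 33.7, values of the authors that apply within each list. The 10 kb bin that holds them, from 168440001 to 168450000, did not pass the limma test (log2 change -0.84, SE 0.85, n = 2 each, adjusted p = 0.612 by limma). Each list was centred on its median bin before this test, and the plain lengths differed the other way. Over the genome, 0.0428% of 21034 H3K27me3 bins were called lower and 0.257% higher in knockouts. In none of the 11 bins of either window that lost H3K27ac was there an H3K27me3 peak in any of the 4 lists, subject to the skipped numbers of control 2 at Nfatc1.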

How the data were processed

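CUT&Tag peak lists of 10 samples were analysed: 6 for H3K27ac and 4 for H3K27me3, equally divided between genotypes. Per the submitters' processing notes, the reads were handled with Bowtie2 2.2.4, deepTools 3.5.1, MACS2, ChIPseeker 1.30.3 and HOMER 4.11 on build mm39. The settings, the background library and the treatment of duplicates are not given in the sources used here. For every peak, a deposited list holds the authors' score, which follows the −log10 p. It also holds the authors' fold enrichment, deposited as a ratio, and the p and q values that the authors deposited as −log10. Each list belongs to 1 library.

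From these files the bases under peaks were computed per window, per 10 kb bin and per merged region (overlap from 1 bp), with coordinates counted from 1. Bins covered in at least 3 H3K27ac or 2 H3K27me3 lists were tested over the whole genome with limma 3.58.1 (R 4.3.3; trended, robust) on log2(bases + 100), centred on the median of bins covered in every list, with p-values adjusted by Benjamini-Hochberg and called under 0.05. The procedure was tested on simulated data. H3K27me3 lengths per window were compared by a two-sided exact permutation test. Fragments at a summit were read back from fold and −log10 p under a Poisson model, to within 0.0005 or 0.005% of −log10 p. The depth estimates in the text come from this step, and reads were not used here.

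The members, lists, rules and tests were chosen with earlier results of these data known. Named regions are, per window, the 6 longest, those in all lists of 1 genotype and none of the other, and the 3 in all lists with the highest mean percentile of −log10 p. Windows most like a member were ranked by Pearson r. No mm39 genome or annotation was used here, so the planned counts over other pathway genes and cell markers were not made. Alternatives covered pseudocount, filter, centring, bin size, peak threshold, list length, region rules, single lists left out and the replicate number as a block.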

Additional observations from a re-analysis of the deposited data

How the results depend on the processing

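The lower H3K27ac length in the knockouts kept its direction under every alternative run for the window totals (11 per gene). The difference of means, -32010 bases at Nfatc1, was -25451 with peaks of −log10 p of at least 15, and ranged from -34343 to -28844 with single lists left out. At Nfatc2, -15039 became -11793 with that threshold and -11643 with lists cut to equal length, and ranged from -16126 to -12901 with single lists left out. The H3K27me3 difference at Nfatc2, 442 bases, was -1229 with that threshold, where no peak of control 1 remained and the list was left out, so that control 2 alone (2694 bases) stood against a knockout mean of 1465. It ranged from -1347 to 2230 with single lists left out. For the H3K27ac values the cause was not tested.

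The counts of called bins depended on the settings. Over the genome, 435 H3K27ac bins were called lower and 112 higher. At a pseudocount of 10 bases the counts were 26 and 4. They were 619 and 169 at 1000, 269 and 58 with no filter, 436 and 254 with lists of equal length, and 737 and 207 in 5 kb bins. Without single lists they ranged from 0 to 974 and from 0 to 245, while 1567 to 2985 and 719 to 1458 bins passed an unadjusted limma p under 0.05. In the Nfatc1 window, 4 called bins became 1 with a pseudocount of 10 and 11 in 5 kb bins, and ranged from 0 to 7 without single lists. In the Nfatc2 window, 3 became 0 with that pseudocount, 1 with −log10 p of at least 15 and 5 in 5 kb bins, and ranged from 0 to 4. Regions in controls only ranged from 4 to 11 at Nfatc1 without single lists, and were 3 at Nfatc2, in place of 5, where a peak had to cover 50% of the region. In fits without a single list, the bins tested stayed those of all lists.

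Same-numbered H3K27ac lists deviated together with r of 0.301, 0.0672 and 0.0920 over 13220 bins, and control 2 correlated best with knockout 3 (0.184), so the numbers were not taken as pairs. With the replicate block, 29 bins were called lower and 3 higher over the genome. Of those called lower, 3 lay in the Nfatc1 window and 0 in the Nfatc2 window. At an unadjusted limma p under 0.05, 8 Nfatc2 bins were lower, and 2318 of the 19295 bins of the genome. The window differences were unchanged. For H3K27me3 the correlation was -0.126. Its genome counts, 9 lower and 54 higher, were 9 and 62 with the replicate block and 4 and 11 with the numbers crossed, an alternative added after the data were seen. Without single lists they ranged from 0 to 725 and from 27 to 5454, the highest without control 2, which left only the sparse control 1. Arms left with 1 list were assumed to vary like the other group. A peak list gives the presence and length of enrichment. Weak peaks near the calling limit of a list are therefore counted as absent.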
